A study of Mus musculus with 23 samples.

Results

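Lymphocyte transcripts were described in hippocampal CD11b+ preparations through 10 genes chosen by name as marks of the B cell, T cell and natural killer (NK) cell lineages, namely *Igkc*, *Jchain*, *Ighm*, *Cd79a*, *Cd79b*, *Cd3e*, *Cd3g*, *Trbc2*, *Cd8a* and *Nkg7*. Of these 10, 8 had a row in the deposited table of 18876 genes and are described here, and *Cd3e* and *Cd8a* were not analysed here. The 23 libraries came from female mice of a mixed 129S;C57BL/6J background that all carried *Slc11a2* fl/fl and 1 copy of a tamoxifen-inducible Cre under the *Cx3cr1* promoter, with or without the *APP/PS1* transgenes. Knockdown (*Slc11a2*KD) was induced with tamoxifen, 4 mg a day for 5 days by mouth, when the mice were 5 to 6 months old, Control mice had corn oil instead, and cells were taken at 15 to 18 months. The groups were Control WT (n = 6), Control *APP/PS1* (n = 7), *Slc11a2*KD WT (n = 5) and *Slc11a2*KD *APP/PS1* (n = 5), with 1 library per sample. The study removed Control *APP/PS1* library 0010 as an outlier, and the comparisons below therefore used 22 libraries, while the levels are given for all 23. *Cx3cr1* is active in microglia, in other cells of the monocyte lineage and in NK cells and some T cells, so this Cre is not limited to microglia.

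CD11b is an integrin subunit of microglia, monocytes, macrophages, neutrophils and many NK cells, and a CD11b+ preparation of brain tissue is made to be mostly microglia. B cells carry a membrane immunoglobulin that signals through the CD79A and CD79B chains, and once they become plasma cells they turn most of their transcription to immunoglobulin chains, so that a plasma cell holds far more light chain RNA than a resting B cell. T cells signal through an antigen receptor coupled to the CD3 chains, and NK cells and cytotoxic T cells share granule proteins such as NKG7. In each clone of B cells 1 rearranged variable gene is expressed with a constant region for each chain, so the variable genes in a sample depend on which clones it holds.

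The preparations were checked against markers of 12 cell types. Levels are given as CPM, that is counts scaled to a common library total with the TMM correction for composition, and total counts per library ran from 31128643 to 54872491. The summed level of 9 microglial genes was between 29880 and 45980 CPM in every library, and *P2ry12*, *Tmem119* and *Itgam*, which encodes CD11b itself, were at 0 in none. Summed erythroid genes ranged from 0.179 to 269.3 CPM, neutrophil genes from 25.0 to 533.7 CPM and choroid plexus epithelial genes from 1.08 to 981 CPM, so material of other cells differed widely between libraries. *Prnp*, part of the transgene construct, was between 13.96 and 24.7 CPM in *APP/PS1* libraries and between 1.72 and 12.2 CPM in WT libraries. The whole-gene level of *Slc11a2* was between 26.8 and 74.4 CPM with overlapping groups, and as it counts exons outside the deleted part too it does not test the knockdown.

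*Igkc*, the constant region of the kappa light chain that most mouse antibodies carry, was the member that differed most between libraries. It is a single-exon gene at chr6:70703419-70703950 (+ strand, GRCm39). *Igkc* had 15748 counts in Control *APP/PS1* 0010 (453.9 CPM), 4475 counts in *Slc11a2*KD *APP/PS1* 0023 (142.6 CPM) and 1246 counts in Control WT 0009 (34.6 CPM), and at most 512 counts in the other 20. Library 0010 alone held 67.2% of the *Igkc* counts of the series and 0023 another 19.1%. *Igkc* was at 0 counts in 3 libraries, Control WT 0012, Control *APP/PS1* 0017 and *Slc11a2*KD *APP/PS1* 0018, where 0 counts allowed a level of up to 3 counts, or 0.0529 to 0.0956 CPM over the 23 libraries. In bulk RNA, fewer cells of a type cannot be told apart from less RNA per cell, and this holds for every level below.

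By group, *Igkc* in Control WT ran from 0 to 34.6 CPM with a median of 2.13 CPM, and in Control *APP/PS1* without 0010 from 0 to 2.11 CPM with a median of 0.163 CPM. In *Slc11a2*KD WT the 5 libraries had 512, 44, 276, 72 and 174 counts, and in *Slc11a2*KD *APP/PS1* they had 5, 0, 21, 81 and 4475 counts. The groups overlapped in each comparison, and the spread within the last group came from 1 library.

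*Jchain*, which joins IgM and IgA units into polymers and is a mark of plasma cells, was high in the same libraries. The gene lies at chr5:88667668-88675750 (− strand, GRCm39). *Jchain* had 4672 counts in 0010 (134.7 CPM, 78.5% of its counts in the series), 485 in 0009 and 261 in 0023, and it was at 0 counts in 7 of 23 libraries. Its group medians were between 0.0448 and 0.377 CPM without 0010. The 3 libraries with the most *Igkc* were also the 3 with the most *Jchain*, but in another order, and *Igkc* counts per *Jchain* count were 3.37 in 0010, 2.57 in 0009 and 17.1 in 0023. Control WT 0008 and *Slc11a2*KD WT 0003, with 369 and 276 *Igkc* counts, had 0 counts of *Jchain*.

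**Figure D1:**
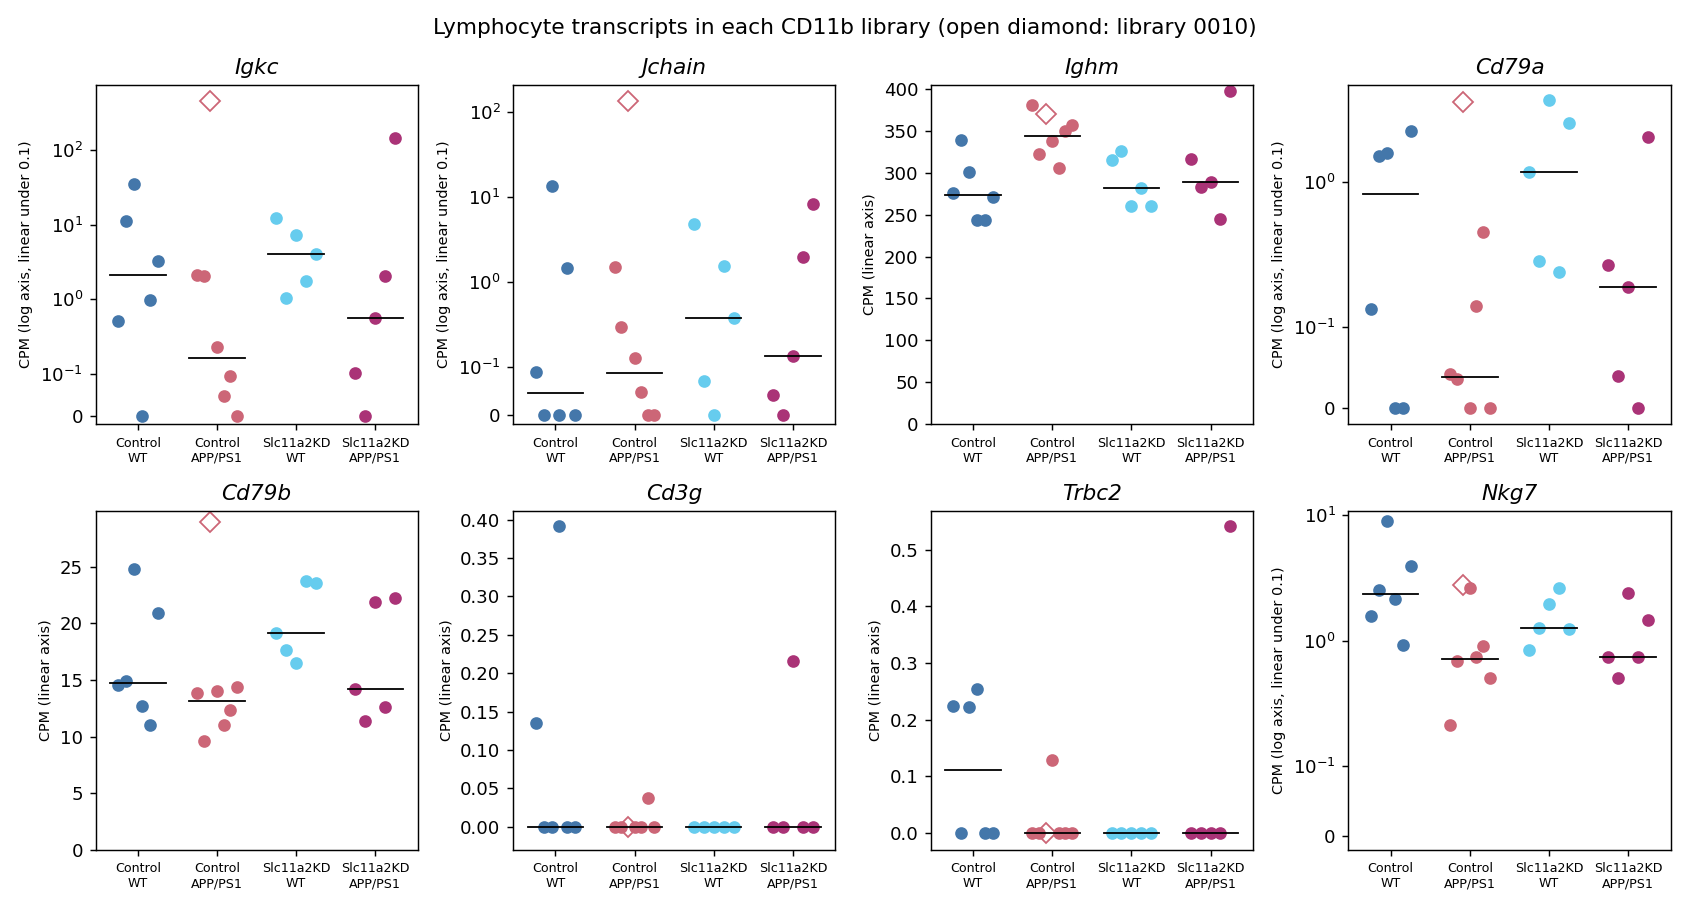
Level of each of the 8 members in each library, in CPM, by group; points are single libraries, the open diamond is Control APP/PS1 0010, the line is the group median without 0010, and axes are marked as log or linear. Igkc spans 0 to 453.9 CPM and Jchain 0 to 134.7 CPM within the series, while Ighm stays between 243.1 and 397.2 CPM in every library.

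The variable genes that carried the kappa reads differed between the libraries, and this was looked at after the *Igkc* values were seen. The table held 13 of the 160 annotated kappa variable genes, with 10747 counts over all libraries, of which 84.0% lay in 0010 and 0023. Genes counted in too few libraries had been removed before deposit, so a variable gene carried by 1 or 2 libraries is outside these totals and the shares below are shares of the 13. In 0010, *Igkv4-55* had 4041 of 4973 kappa variable counts (81.3%, 95% exact binomial interval 80.1 to 82.3%). In 0023, *Igkv3-2* had 3749 of 4058 (92.4%, interval 91.5 to 93.2%). Among the 13, the 2 libraries highest in *Igkc* were each led by 1 gene, and by a different one: *Igkv4-55* had 15 counts in 0023 and *Igkv3-2* had 5 counts in 0010. In Control WT 0009 *Igkv4-55* had 297 of 544 counts (54.6%, interval 50.3 to 58.8%), in *Slc11a2*KD WT 0001 *Igkv8-30* had 271 of 419 (64.7%, interval 59.9 to 69.3%), and in *Slc11a2*KD WT 0022 *Igkv3-2* had all 176. None of the 13 genes had a count in 6 libraries, namely Control WT 0014, Control *APP/PS1* 0016 and 0017 and *Slc11a2*KD *APP/PS1* 0018, 0020 and 0021. These intervals cover counting error only, since reads of 1 RNA molecule or 1 cell are not independent.

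The last 240 bases of both leading variable genes are shown because their counts set the 2 libraries highest in *Igkc* apart. *Igkv4-55* lies at chr6:69584259-69584812 (− strand, GRCm39) and *Igkv3-2* at chr6:70675433-70676051 (+ strand). The sequences were read from the GENCODE transcripts in the coding direction, and capitals mark the bases that differ from the most similar annotated kappa variable gene, which is *Igkv4-61* for *Igkv4-55* and *Igkv3-5* for *Igkv3-2*.
Igkv4-55: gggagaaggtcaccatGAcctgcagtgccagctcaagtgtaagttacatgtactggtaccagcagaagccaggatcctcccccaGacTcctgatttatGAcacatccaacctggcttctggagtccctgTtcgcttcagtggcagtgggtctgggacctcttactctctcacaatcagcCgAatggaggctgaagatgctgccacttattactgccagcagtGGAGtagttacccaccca
Igkv3-2: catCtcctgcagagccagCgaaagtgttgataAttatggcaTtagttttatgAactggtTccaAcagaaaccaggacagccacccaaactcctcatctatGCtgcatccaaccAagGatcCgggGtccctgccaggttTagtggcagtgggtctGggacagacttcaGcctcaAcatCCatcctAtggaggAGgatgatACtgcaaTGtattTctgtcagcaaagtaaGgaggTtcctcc
In these stretches 13 bases of *Igkv4-55* and 29 bases of *Igkv3-2* differ from the relative. Over the whole transcripts *Igkv4-55* is 94.8% identical to *Igkv4-61* and *Igkv3-2* 90.3% identical to *Igkv3-5*, while the 2 leading genes are 69.7% identical to each other. Reads were counted only where they aligned to 1 place, so counts of a variable gene are uncertain where a stretch is shared with a relative or was changed by somatic mutation.

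The heavy chain constant genes separated the same libraries again. Class switching replaces the IgM constant region by an IgG or IgA one, and 4 switched constant genes were in the table. In 0010, *Ighg2c*, the IgG2c constant gene of C57BL/6 mice, had 4602 of 5038 switched counts (91.3%, 95% exact binomial interval 90.5 to 92.1%), against at most 33 counts in any other library. Shares are of the 4 genes, and which strain's heavy chain locus each mouse of this mixed background carried is not given. A low *Ighg2c* count is therefore not read as a lack of IgG2 transcripts. In *Slc11a2*KD WT 0001 *Igha*, the IgA constant gene, had all 367 switched counts, and in Control WT 0009 it had 152 of 170 (89.4%). Library 0023, second in *Igkc*, had only 151 switched counts, led by *Igha* with 73, beside its 4475 counts of *Igkc*, and *Ighg1*, a further switched constant gene, was not analysed here. *Mzb1*, a chaperone of antibody-making cells, had 126 counts in 0010, 51 in 0023, 19 in *Slc11a2*KD WT 0022 and 2 in Control *APP/PS1* 0005, and 0 in the other 19. The lambda constant genes *Iglc1*, *Iglc2* and *Iglc3* had 275, 257 and 204 counts in 0010 and 66, 122 and 116 in 0023, and at most 52, 17 and 18 elsewhere.

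**Figure D2:**
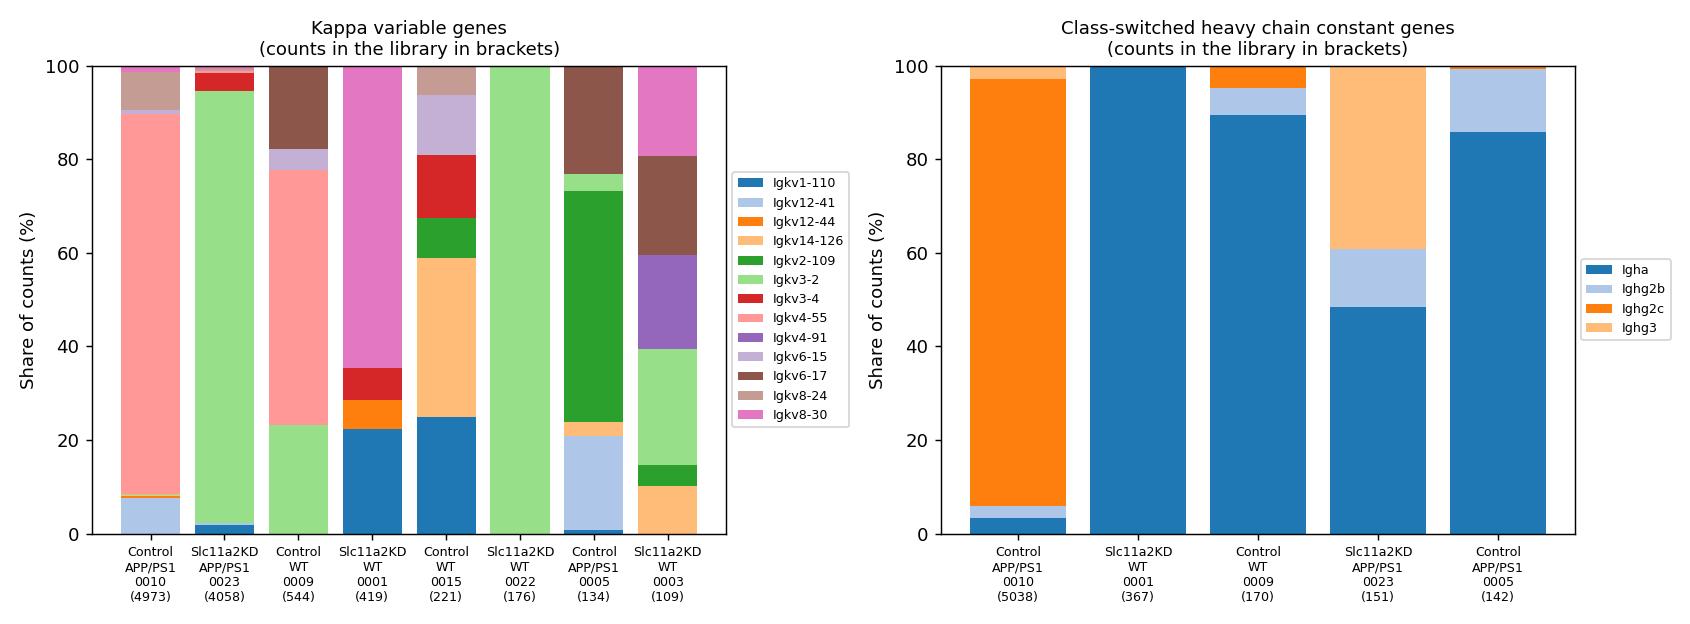
Shares of counts, in percent, of 13 kappa variable genes (left) and 4 switched heavy chain constant genes (right) in the libraries with at least 100 such counts, given in brackets. Igkv4-55 makes up 81.3% in Control APP/PS1 0010 and Igkv3-2 makes up 92.4% in Slc11a2KD APP/PS1 0023, and Ighg2c leads only in 0010.

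*Cd79a*, the signalling chain of the B cell receptor, followed another order of libraries. The gene lies at chr7:24596740-24601622 (+ strand, GRCm39). *Cd79a* was highest in *Slc11a2*KD WT 0003 with 141 counts (3.66 CPM), then in 0010 with 124, in *Slc11a2*KD WT 0022 with 109, in Control WT 0015 with 77 and in 0023 with 64. It was at 0 counts in 5 libraries. The range over the libraries was 0 to 3.66 CPM, much narrower than that of *Igkc*, and the number of *Igkc* counts per *Cd79a* count ran from 0.208 in Control *APP/PS1* 0016 to 127 in 0010, with 69.9 in 0023, 21.9 in 0009 and 1.6 in 0022, among libraries with over 3 counts of each.

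*Cd79a* shared its leading libraries with *Ms4a1*, a gene of B cells that are not yet plasma cells. *Ms4a1*, the surface protein CD20 that plasma cells lose, was highest in *Slc11a2*KD WT 0003 with 199 counts, followed by Control WT 0015 with 133, 0010 with 117, 0023 with 102 and 0022 with 98. So 0003, 0015 and 0022 held *Ms4a1* and *Cd79a* with little *Jchain*, of which they had 0, 0 and 16 counts, while 0010 held all of them. In 0010, *Ccr7* and *Ly6d*, genes of naive lymphocytes and B cells, were also highest of the series, with 576 and 500 counts against at most 103 and 166 elsewhere.

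*Ighm* and *Cd79b* behaved differently from the other B lineage members. *Ighm*, the constant region of IgM (chr12:113382178-113386350, − strand, GRCm39), had between 9272 and 18503 counts in every library, or 243.1 to 397.2 CPM, a 1.63-fold range. Control WT had a median of 273.7 CPM (243.1 to 339.2), Control *APP/PS1* without 0010 a median of 344 CPM (305.3 to 381.4), and library 0010 had 369.7 CPM. In *Slc11a2*KD WT the 5 values were 315.6, 326.4, 260.7, 281.8 and 260.6 CPM, and in *Slc11a2*KD *APP/PS1* 316.6, 282.8, 289.5, 244.4 and 397.2 CPM. Control WT 0012, with 0 counts of *Igkc*, *Jchain*, *Cd79a* and *Ms4a1*, still had 10560 counts of *Ighm* (243.4 CPM). *Cd79b*, the partner of *Cd79a* in the receptor (chr11:106202167-106205588, − strand), had 471 to 1005 counts in every library (9.61 to 29.0 CPM). *Ighd*, next to *Ighm* in the heavy chain locus, was likewise present in every library, between 1.69 and 10.7 CPM.

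Counts per length of exon, in CPM per kilobase of merged exons, allow the members to be ordered. The median over the 23 libraries was 161.9 for *Ighm*, 10.2 for *Cd79b*, 3.27 for *Igkc*, 1.37 for *Nkg7*, 0.159 for *Cd79a* and 0.0513 for *Jchain*, and 0 for *Cd3g* and *Trbc2*. The ranges of *Ighm* (128.9 to 210.6) and *Cd79b* (6.72 to 20.2) did not overlap, and from *Cd79b* downwards each neighbour in this order overlapped the next. In 0010 and 0023 *Igkc* stood above *Ighm*, at 853.1 and 268 CPM per kilobase. Within the counts of the 5 B lineage members, *Ighm* made up 37.3% in 0010, 69.4% in 0023 and 80.2% to 96.5% in the other 21 libraries.

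**Figure D3:**
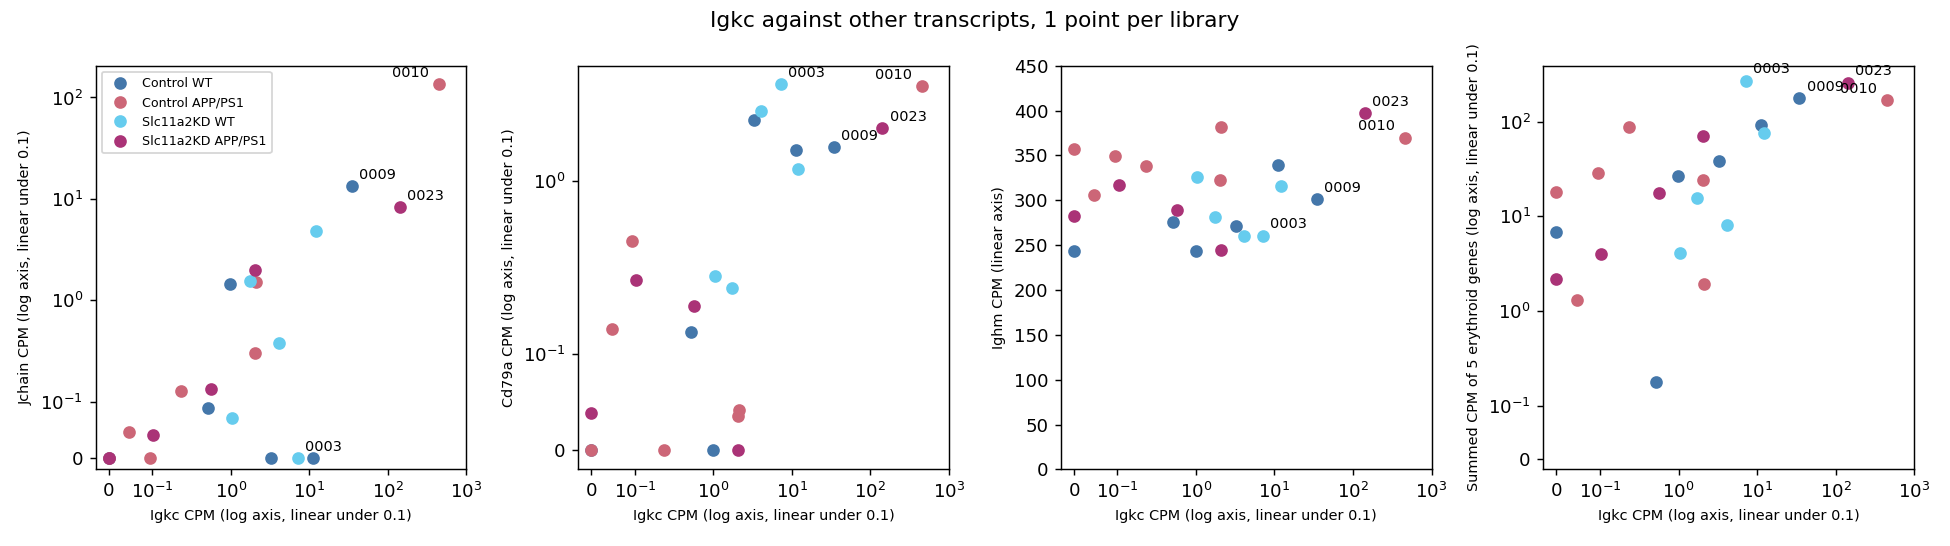
Igkc level in CPM (log axis, linear under 0.1) against Jchain, Cd79a, Ighm and the summed level of 5 erythroid genes in CPM, 1 point per library, coloured by group, with 4 libraries named. Jchain is highest where Igkc is highest, Cd79a is highest in library 0003, and Ighm stays above 243 CPM also where Igkc is 0.

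T cell receptor transcripts were near the limit of detection. *Cd3g*, a chain of the CD3 complex (chr9:44880870-44891735, − strand, GRCm39), had counts in 4 of 23 libraries, namely 17 in Control WT 0012, 8 in *Slc11a2*KD *APP/PS1* 0020, 6 in Control WT 0006 and 2 in Control *APP/PS1* 0016. *Trbc2*, a constant region of the T cell receptor beta chain (chr6:41523664-41525286, + strand), had counts in 5 of 23, namely 17 in 0023, 11 in Control WT 0012, 10 in Control WT 0006, 8 in 0009 and 5 in Control *APP/PS1* 0011. Only Control WT 0006 and 0012 had counts of both. Both genes were at 0 in all 5 *Slc11a2*KD WT libraries, and both were at 0 in 0010, the library with the most B lineage RNA. No fold change is given for these 2 genes, since they pass the filter on low counts through 3 to 5 libraries with 5 to 17 counts each. Among the other T cell receptor genes, *Cd3d* and *Trac* were each at 0 in 18 of 23 libraries, with at most 20 and 18 counts. The transcripts of *Trbc2* and its copy *Trbc1* are 83.7% identical, and reads shared by the copies would not be counted for either.

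*Nkg7*, a granule membrane protein of NK and cytotoxic T cells, was present in every library (chr7:43086497-43087678, + strand, GRCm39). Control WT libraries ran from 0.925 to 9.02 CPM with a median of 2.35 CPM, and Control *APP/PS1* libraries without 0010 from 0.211 to 2.63 CPM with a median of 0.717 CPM, with 2.77 CPM in 0010. In *Slc11a2*KD WT the 5 libraries had 36, 53, 76, 109 and 53 counts, and in *Slc11a2*KD *APP/PS1* they had 36, 26, 89, 29 and 46 counts. The highest library was Control WT 0009, with 325 counts (9.02 CPM), followed by Control WT 0015 with 134 counts (3.92 CPM). The same library was highest in *Ccl5* (557 counts) and *Gzma* (633 counts), a chemokine and a protease of cytotoxic lymphocytes, while *Klrd1*, an NK receptor chain, was highest in Control WT 0008 (1016 counts). Of the defining genes of NK cells, *Klrb1c* was above 0 in every library, with a median of 1.75 CPM and at most 3.39 CPM. *Prf1* was at 0 in 3 of 23 libraries, *Ncr1* in 6 and *Eomes* in 16. The highest levels of *Prf1* and *Ncr1* were 2.91 and 1.25 CPM.

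For *APP/PS1* against WT in Control mice, 1 of 8 members passed the test at an adjusted p-value below 0.05 (edgeR, quasi-likelihood test), against 10.5% of all 18759 genes tested. The 1 member was *Nkg7*, which fell by 1.82 on the log2 scale in *APP/PS1* (SE 0.589, adjusted p = 0.0487), with group means of 0.949 and 3.35 CPM and overlapping groups. An exact permutation test of the mean CPM of *Nkg7*, two-sided and not adjusted over the members, gave p = 0.0325. The adjusted p of *Nkg7* sat at the threshold: it was between 0.0536 and 0.193 in 9 of the 12 fits that each left out 1 of the Control libraries, namely Control *APP/PS1* 0005, 0007, 0013, 0016 and 0017 and Control WT 0008, 0009, 0012 and 0015. With 0010 kept its log2 fold change was −1.47 (adjusted p = 0.0974), and without Control WT 0009 it was −1.23 (adjusted p = 0.193). DESeq2 also called 1 member, *Nkg7*, beside 2544 of all 18759 genes. Without Control WT 0008, *Ighm* passed in place of *Nkg7*.

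The other members did not pass in Control mice. *Igkc* had a log2 fold change of −3.45 (SE 1.56, adjusted p = 0.17), *Cd79a* of −2.98 (SE 1.38, adjusted p = 0.182) and *Jchain* of −2.89 (SE 1.73, adjusted p = 0.333), all by edgeR. Without Control WT 0009 the values of *Igkc* and *Jchain* were −2.04 and 0.0941, and with 0010 kept they turned to 2.96 and 2.97. *Ighm* was 0.30 higher in *APP/PS1* by the fit (SE 0.112, adjusted p = 0.0969), with means of 342.4 ± 26.8 CPM (SD, n = 6) and 279 ± 36.7 CPM (SD, n = 6) and an exact permutation p of 0.0108 that is not adjusted over the members. *Cd79b* had a log2 fold change of −0.39 (SE 0.202, adjusted p = 0.238). At an unadjusted p below 0.05, 4 of 8 members would pass, *Igkc*, *Ighm*, *Cd79a* and *Nkg7*, beside 4558 of all 18759 genes tested. Over the 6 members other than *Cd3g* and *Trbc2* the median log2 fold change was −2.36, beside −0.0223 over all genes tested. The 6 values ran from −3.45 for *Igkc* to 0.30 for *Ighm*. Those of *Igkc* and *Jchain* depended on single libraries, so the median is not read as a joint fall.

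The genotype difference was also fitted in *Slc11a2*KD mice, where 0 of 8 members passed (edgeR), against 16.2% of all genes. DESeq2 called 0 members and 3952 of all genes. At an unadjusted p below 0.05 there were 2 members, *Cd3g* and *Trbc2*, beside 5943 of all 18759 genes. Both were at 0 in every *Slc11a2*KD WT library. Each had counts in 1 *Slc11a2*KD *APP/PS1* library, *Cd3g* 8 in 0020 and *Trbc2* 17 in 0023. *Nkg7* differed by −0.45 (SE 0.63, adjusted p = 0.693) and *Igkc* by 2.47 (SE 1.59, adjusted p = 0.306), and the latter became −2.94 without library 0023. Averaged over Control and *Slc11a2*KD mice, 0 of 8 members passed with edgeR, against 24.9% of all genes, with 4 at an unadjusted p below 0.05, *Ighm*, *Cd79a*, *Cd79b* and *Nkg7*. DESeq2 called 2 of them there, *Cd79a* and *Nkg7*. Over all genes 6875 had an unadjusted p below 0.05 in this comparison, and DESeq2 called 5114. *Nkg7* had a log2 fold change of −1.13 (SE 0.43, adjusted p = 0.0564), *Cd79a* of −2.32 (SE 0.99, adjusted p = 0.0911), *Cd79b* of −0.34 (SE 0.15, adjusted p = 0.0986) and *Ighm* of 0.19 (SE 0.0828, adjusted p = 0.099). *Igkc* had −0.49 (SE 1.05, adjusted p = 0.78), and −3.20 without library 0023, at an adjusted p of 0.0256. The share of all genes that passed without 0023 is not reported here.

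Markers of several other cell types also differed between *APP/PS1* and WT Control mice. Beside the 10.5% of all genes called in either direction (edgeR), 8 of 10 choroid plexus, 4 of 10 neutrophil, 5 of 7 border-associated macrophage and 5 of 8 endothelial genes fell, while 1 endothelial and 1 of 7 astrocyte genes rose and 0 of 5 erythroid genes passed. The choroid plexus genes summed to 981 CPM in Control WT 0012 and 407.8 CPM in Control WT 0015. The remaining Control WT libraries had 1.08 to 5.29 CPM, overlapping the 1.28 to 4.78 CPM of Control *APP/PS1* without 0010. The summed level of 10 neutrophil genes was between 92.1 and 339.3 CPM in Control WT and between 25.0 and 104.1 CPM in Control *APP/PS1*. The 7 border-associated macrophage genes summed to 218.8 to 424.1 CPM in Control WT and 90.95 to 195.3 CPM in Control *APP/PS1*, without overlap, and the 8 endothelial genes to 161.2 to 402.4 CPM and 102 to 151.6 CPM, without overlap. Their part in the differences of the lymphocyte genes was not tested. Of the 9 microglial genes 4 fell, and their sum was 38700 to 45520 CPM in Control WT against 29880 to 34430 CPM in Control *APP/PS1*.

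**Figure D4:**
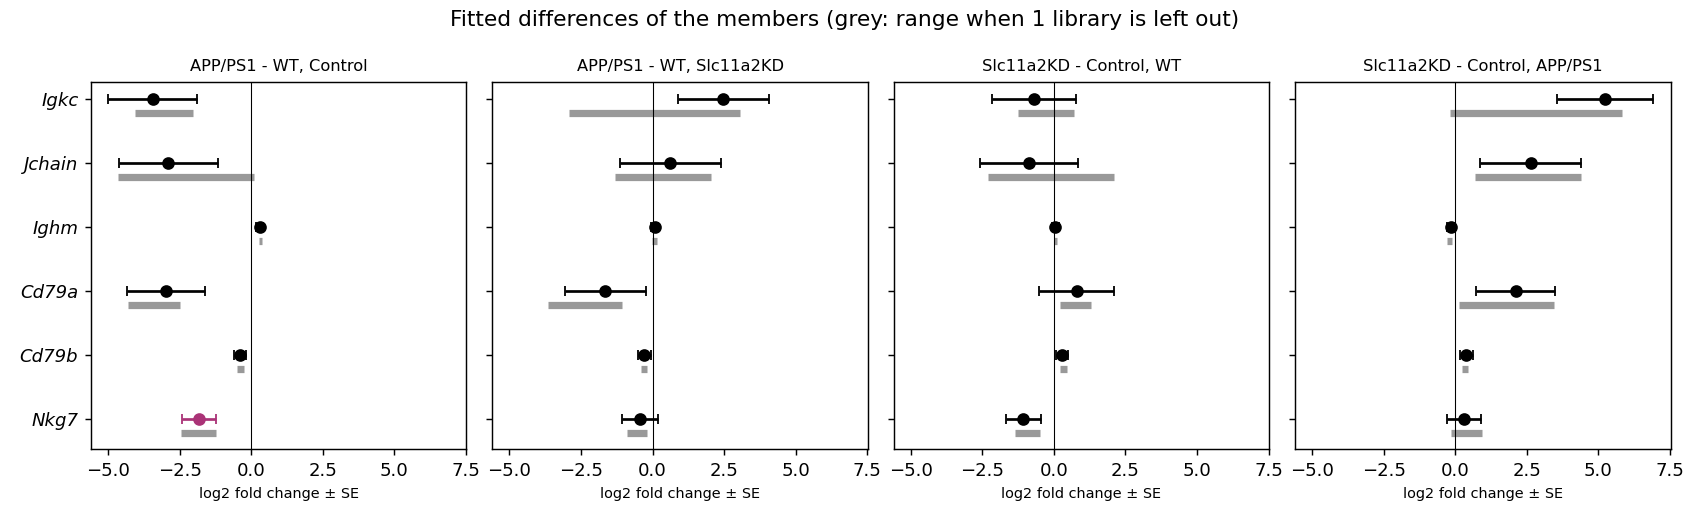
Log2 fold change with its standard error for 6 members in 4 comparisons of 2 groups (edgeR, 22 libraries); the coloured point passed an adjusted p of 0.05 and the grey bar is the range of the estimate when 1 library of the compared groups is left out. Nkg7 in Control mice is the 1 member past the threshold, and the bar of Igkc for Slc11a2KD against Control in APP/PS1 mice runs from −0.17 to 5.84.

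For *Slc11a2*KD against Control in *APP/PS1* mice, 0 of 8 members passed (edgeR), beside 0% of all genes, with 1 at an unadjusted p below 0.05, *Igkc*. Over all genes 3862 had an unadjusted p below 0.05, and DESeq2 called 580, gave no adjusted p for 7 of the members, *Igkc* among them, and called 0. *Igkc* had a log2 fold change of 5.23 (SE 1.69, adjusted p = 0.205), the group means being 29.1 ± 63.5 CPM with knockdown (SD, n = 5) and 0.755 ± 1.03 CPM without (SD, n = 6). An exact permutation test of the mean CPM of *Igkc*, two-sided, gave p = 0.216. Without *Slc11a2*KD *APP/PS1* 0004, which the study described as unlike the rest of its group, *Igkc* passed with a log2 fold change of 5.55 (edgeR, adjusted p = 0.0283), when 16.4% of 18700 genes passed. Without library 0023 the log2 fold change was −0.17 (adjusted p = 0.979), and without both libraries it was 0.19 (adjusted p = 0.963). With 0010 kept in the Control group it was −1.17 (adjusted p = 0.85). The difference in *Igkc* between these groups thus rested on library 0023, in which *Igkv3-2* made up 92.4% of the kappa variable counts. *Cd79a* (2.12, SE 1.38, adjusted p = 0.391), *Jchain* (2.63, SE 1.76, adjusted p = 0.406), *Cd79b* (0.39, SE 0.211, adjusted p = 0.288) and *Ighm* (−0.16, SE 0.117, adjusted p = 0.451) did not pass either.

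For *Slc11a2*KD against Control in WT mice, 0 of 8 members passed (edgeR), beside 0% of all genes, and 0 by DESeq2. At an unadjusted p below 0.05 there were 2, *Cd3g* and *Trbc2*, both at 0 in every *Slc11a2*KD WT library. Exact permutation tests of their mean CPM, two-sided and not adjusted, gave p = 0.455 for *Cd3g* and p = 0.182 for *Trbc2*. Over all genes 1110 had an unadjusted p below 0.05, and DESeq2 called 10. *Igkc* had a log2 fold change of −0.69 (SE 1.47, adjusted p = 1), *Cd79a* of 0.80 (SE 1.32, adjusted p = 1) and *Nkg7* of −1.07 (SE 0.611, adjusted p = 1). The interaction of knockdown and *APP/PS1* also gave 0 of 8 members (edgeR), beside 0% of all genes, with 3 at an unadjusted p below 0.05, *Igkc*, *Cd3g* and *Trbc2*, and 0 by DESeq2. Over all genes 1703 had an unadjusted p below 0.05 for the interaction, and DESeq2 called 25. All libraries with numbers 18 to 23 belonged to the knockdown groups, and with these numbers as a covariate *Igkc* differed by 4.97 between *Slc11a2*KD and Control *APP/PS1* (adjusted p = 1).

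Further genes of the lymphocyte pathways were tested from lists of B cell, T cell and NK genes. Of 28 B cell genes tested, 2 were higher and 1 lower in *APP/PS1* in Control mice (edgeR, 10.5% of all genes called), and 2 higher and 5 lower in *Slc11a2*KD mice (16.2% of all genes called). The count in Control mice was thus near the share over all genes. *Cd22* and *Cd72*, inhibitory receptors of B cells that microglia also use, rose by 1.58 and 2.04 on the log2 scale in Control mice (edgeR, adjusted p = 0.000772 and 0.00123). *Bank1*, an adaptor of B cell receptor signalling, fell by 1.77 (adjusted p = 0.000151). All 3 genes were found in every library. The lowest library had 3.83 CPM of *Cd72* and 3.99 CPM of *Bank1*. *Lyn* and *Syk*, kinases downstream of the receptor, fell in *Slc11a2*KD mice by 0.94 and 1.07 (edgeR, adjusted p = 0.00617 and 0.0127), as did *Ighd* (adjusted p = 0.0187), with means over both conditions of 4.28 CPM in *APP/PS1* and 7.67 CPM in WT. These 3 genes did not pass in Control mice, and the interaction passed for none of them (edgeR). *Ms4a1* was not among the genes called by edgeR, while DESeq2 called it over both conditions. *Mzb1* was not tested, since without 0010 it did not pass the filter on low counts.

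Of 26 T cell genes tested, 4 were higher and 2 lower in *APP/PS1* in Control mice, and 3 higher and 3 lower in *Slc11a2*KD mice, beside 10.5% and 16.2% of all genes. *Cd5*, a negative regulator of antigen receptors, rose by 4.58 on the log2 scale in Control mice (edgeR, adjusted p = 7.57e-07). The rise was 2.53 in *Slc11a2*KD mice and 3.55 over both conditions. Over both conditions its mean was 0.918 ± 0.753 CPM in WT and 9.46 ± 1.99 CPM in *APP/PS1* libraries (SD, n = 11 each, without 0010). *Pdcd1*, the inhibitory receptor PD-1, rose by 2.48 in Control mice (adjusted p = 6.73e-05). Over both conditions it had 38.5 to 97.2 CPM in *APP/PS1* libraries and 1.74 to 27.0 CPM in WT libraries. *Cd28*, a co-stimulatory receptor, rose by 1.20 (adjusted p = 0.0387). *Il7r*, the interleukin-7 receptor, fell by 1.33 (adjusted p = 0.00277) and *Cd4*, a co-receptor that some macrophages also carry, fell by 1.43 (adjusted p = 0.0264). *Lcp2*, an adaptor below the T cell receptor that myeloid cells share, fell in *Slc11a2*KD mice by 0.55 (adjusted p = 0.00898). *Pdcd1*, *Cd28*, *Il7r* and *Lcp2* were above 0 in every library, unlike *Cd3g*, *Trbc2*, *Cd3d* and *Trac*.

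Of 20 NK and cytotoxic genes tested, 1 was higher and 1 lower in *APP/PS1* in Control mice, and 2 were higher and 0 lower in *Slc11a2*KD mice. By edgeR neither count exceeded the shares over all genes of 10.5% and 16.2%. DESeq2 called 6 of the 20 genes in Control mice, *Cst7*, *Gzma*, *Il2rb*, *Klrd1*, *Klrk1* and *Xcl1*, beside 2544 of all 18759 genes. In *Slc11a2*KD mice DESeq2 called *Cst7* and *Klrd1*, beside 3952 of all genes. *Cst7*, a cystatin of cytotoxic lymphocytes that is also a known gene of microglia near amyloid plaques, rose by 4.96 on the log2 scale in Control mice (edgeR, adjusted p = 8e-07). Over both conditions it had 265 to 615 CPM in *APP/PS1* and 3.82 to 52.4 CPM in WT libraries. *Klrd1* fell by 1.93 in Control mice (edgeR, adjusted p = 0.00703). It had 24.0 CPM in the left-out library 0010, against at most 8.96 CPM in the rest of that group. In *Slc11a2*KD mice *Klrd1* did not pass (edgeR, adjusted p = 0.0612). *Fasl*, the ligand of the death receptor Fas, passed in *Slc11a2*KD mice (adjusted p = 0.0495) with at most 0.991 CPM in any library and 14 of 23 libraries at 0, and no fold is given. In both comparisons of *Slc11a2*KD with Control, 0 genes of the 3 lists passed with edgeR. At an unadjusted p below 0.05 (edgeR) there were 1 of 28 B cell, 5 of 26 T cell and 3 of 20 NK genes in WT. Over all 18759 genes tested, 1110 had such a p in WT. In *APP/PS1* there were 8, 4 and 1 of the same lists, beside 3862 over all genes. DESeq2 called *Cd5* in WT, beside 10 of all genes, where edgeR gave *Cd5* a log2 fold change of 1.88 (SE 0.477, adjusted p = 0.715). In *APP/PS1* DESeq2 called *Lcp2*, beside 580 of all genes, and gave no adjusted p for most genes of the lists. The median log2 fold change in Control mice was −0.72 over the B cell genes, −1.15 over the T cell genes and −1.69 over the NK genes, beside −0.0223 over all genes tested, and many of these genes have few counts.

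Relations between members were computed across libraries within each genotype, on log2 CPM, over 11 WT and 12 *APP/PS1* libraries with 0010 included, as 14 relations with p-values from 100000 permutations and adjusted over the family. *Igkc* and *Jchain* were related within *APP/PS1* (Pearson r = 0.965, permutation p = 1e-05, the smallest they can give, adjusted 0.00014, Spearman rho = 0.959, permutation p = 3e-05, adjusted 0.00042), and r was 0.913 without 0010 and 0023. Within WT the r of this pair was 0.444 (permutation p = 0.172, adjusted 0.202, rho = 0.326, permutation p = 0.325, adjusted 0.379), and −0.0382 without Control WT 0009 and 0012. *Igkc* and *Cd79a* were related within WT by r = 0.809 (permutation p = 0.00168, adjusted 0.0118), with rho = 0.72 (permutation p = 0.015, adjusted 0.0702) and r = 0.782 without those 2 libraries. Within *APP/PS1* the same pair had r = 0.698 (permutation p = 0.0141, adjusted 0.0464) and rho = 0.37 (permutation p = 0.235, adjusted 0.299), and r turned to −0.212 without 0010 and 0023, so the relation rested on those libraries.

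*Igkc* was not shown to vary with *Ighm* in either genotype (r = 0.541 within WT, permutation p = 0.0831, adjusted 0.126, rho = 0.509, permutation p = 0.116, adjusted 0.232, and r = 0.411 within *APP/PS1*, permutation p = 0.184, adjusted 0.202, rho = 0.424, permutation p = 0.171, adjusted 0.266). Without the 2 farthest libraries these r were 0.348 and −0.121. *Igkc* and *Cd79b* had r = 0.576 within WT (permutation p = 0.059, adjusted 0.118, rho = 0.609, permutation p = 0.0516, adjusted 0.16) and r = 0.704 within *APP/PS1* (permutation p = 0.0141, adjusted 0.0464, rho = 0.441, permutation p = 0.152, adjusted 0.266), and the latter was 0.0236 without 0010 and 0023.

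The erythroid genes were set beside *Igkc* after the values were seen, since red cells carry globin RNA and come with blood. These erythroid relations were not planned. The summed level of 5 erythroid genes was 269.3 CPM in 0003, 256.8 in 0023, 175.7 in 0009 and 169.6 in 0010, which were the 4 highest libraries, and the median of all 23 was 24.1 CPM. Within WT the erythroid sum and *Igkc* had r = 0.678 (permutation p = 0.0246, adjusted 0.0573) and rho = 0.809 (permutation p = 0.00409, adjusted 0.0286), and within *APP/PS1* r = 0.666 (permutation p = 0.0166, adjusted 0.0464) and rho = 0.543 (permutation p = 0.0726, adjusted 0.169). Without the 2 farthest libraries r was 0.767 and 0.523. With *Cd79a* the erythroid sum had r = 0.545 within WT (permutation p = 0.0813, adjusted 0.126, rho = 0.597, permutation p = 0.0572, adjusted 0.16) and r = 0.41 within *APP/PS1* (permutation p = 0.187, adjusted 0.202, rho = 0.176, permutation p = 0.585, adjusted 0.63), and without the 2 farthest libraries 0.457 and 0.279. The neutrophil sum had another order. It was highest in *Slc11a2*KD WT 0019 (533.7 CPM) and Control WT 0014 (339.3 CPM), where *Igkc* was 1.74 and 0.99 CPM. In 0009, 0023, 0003 and 0010 the neutrophil sum was 206.2, 153.1, 122.3 and 86.7 CPM, beside a median of 104.1 CPM over all 23. The part of blood in the levels of the members was not tested. The choroid plexus sum, which was highest in Control WT 0012 where *Igkc* was 0, had r = −0.532 with *Igkc* within WT (permutation p = 0.0898, adjusted 0.126, rho = −0.4, permutation p = 0.225, adjusted 0.299) and r = 0.13 within *APP/PS1* (permutation p = 0.714, adjusted 0.714, rho = 0.0525, permutation p = 0.872, adjusted 0.872), and −0.28 and 0.482 without the 2 farthest libraries.

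Likeness of pattern was ranked over 13142 genes with a mean of at least 0.5 CPM by the mean of the Spearman correlations within the 11 WT and the 12 *APP/PS1* libraries, as a description. The genes most like *Cd79a* were *Ms4a1* (0.797), *Spib* (0.785), a transcription factor of B cells and plasmacytoid dendritic cells, and *Thy1* (0.746). Those most like *Jchain* were *Igha* (0.791), *Gm56817* (0.746) and *Ctsh* (0.742), and those most like *Igkc* were *Npm3-ps1* (0.74), the lambda constant gene *Iglc1* (0.738) and *Gm26910* (0.723). The genes most like *Nkg7* were *Cd2* (0.761), an adhesion receptor of T and NK cells, *Ifi47* (0.712) and *Gzma* (0.708). For *Ighm* they were *Eva1a* (0.755), *C130089K02Rik* (0.734) and *Adgrg5* (0.683), and for *Cd79b* *Nsl1* (0.78), *Gm10640* (0.737) and *H2-T10* (0.72), none of which is an immunoglobulin gene. For *Cd3g* they were *Cttn* (0.657), *Gm54639* (0.618) and *Calr3* (0.615), and for *Trbc2* *2810429I04Rik* (0.661), *Slc7a4* (0.628) and *Ccm2l* (0.61), both over members with at least 18 of 23 libraries at 0.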

How the data were processed

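RNA of CD11b+ cells from the hippocampus of perfused female mice was sequenced as poly(A)-selected libraries, 1 library per sample and 23 in all. Per the labels and the methods, the authors trimmed reads with Trim Galore 0.6.7, aligned them with STAR to the mm39 genome and counted uniquely aligned reads per gene. The deposited counts were not normalized and hold 18876 genes with at least 16 counts over all libraries. The second deposited table holds a signal, counts that the authors divided by DESeq2 1.36.0 size factors, and it was used only for 1 alternative. Rows without a symbol (80 genes) held 0.0166% of counts. Each sample's group came from its label. Of the columns per sample, 0 were left unused.

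The tests covered 18759 genes that reached 5 counts in 3 or more of 22 libraries, Control *APP/PS1* 0010 being left out. A single edgeR 4.0.16 fit over the 4 groups (R 4.3.3, TMM scaling) gave two-sided quasi-likelihood tests, and Benjamini-Hochberg adjustment ran over all 18759 genes with a threshold of 0.05. DESeq2 1.42.0 was an alternative. Standard errors were the size of the log2 fold change over the square root of F. Mean CPM was compared by exact permutation tests. Log2 CPM used a prior count of 2. The fits were also run on simulated counts with the same spread for all genes. That setting is unlike *Igkc* or *Jchain*, so it does not test the fits for such genes. Positions, exon lengths and variable gene sequences came from GENCODE M39 on GRCm39, the same assembly as mm39, and in it *Igkc* overlaps *Gm30211* on the same strand and *Cd79a* overlaps lncRNA genes, where reads can be lost as ambiguous. Whether the counting used strand is not given in the sources used here. No promoter sequence is printed.

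The members and lists were chosen with earlier results of these data known. The genes named were all members, at most 6 called genes of each pathway list by smallest adjusted p, and the 3 genes most like each member. Other immunoglobulin and B cell genes were named after their values were seen. Relations that needed *Cd3e* were not run. The 253 pairs of libraries were compared, and none agreed within sampling noise (smallest chi-square per degree of freedom 37.9). The p-values measure the spread between these mice. Total counts per library were 31128643 to 54872491, and 0 counts allow a level of up to 3 counts. Some genes of the marker lists are not reported here by name.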

Additional observations from a re-analysis of the deposited data

Results flagged for a closer look

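Within groups of 5 to 7 libraries, 15 of 30 member and group combinations held 1 library whose gap to the next, over the range of its group, passed Dixon's 95% critical value. For normally distributed values chance gives about 1 in 20, but CPM values with many zeros are not such values, and the number is not read against that rate. Control *APP/PS1* 0010 stood above its group in *Igkc* (453.9 CPM), *Jchain* (134.7 CPM), *Cd79a* (3.57 CPM) and *Cd79b* (29.0 CPM). *Slc11a2*KD *APP/PS1* 0023 did so in *Igkc* (142.6 CPM), *Jchain* (8.32 CPM), *Cd79a* (2.04 CPM) and *Trbc2* (0.542 CPM), and Control WT 0009 in *Igkc* (34.6 CPM), *Jchain* (13.5 CPM) and *Nkg7* (9.02 CPM). In 4 of these groups the library was the only one with counts, which sets the ratio to 1. The other libraries that stood out did so in genes near the limit of detection, with *Cd3g* in Control WT 0012 (0.392 CPM), Control *APP/PS1* 0016 (0.0378 CPM) and *Slc11a2*KD *APP/PS1* 0020 (0.216 CPM) and *Trbc2* in Control *APP/PS1* 0011 (0.129 CPM).

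The highest level of any member in CPM lay in a library that the comparisons leave out. *Igkc* had 15748 counts in Control *APP/PS1* 0010, against at most 4475 counts of *Igkc* in any of the 22 libraries compared.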

How the results depend on the processing

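For *APP/PS1* against WT over Control and knockdown, the number of members called, 0 with edgeR, was 2 with DESeq2, 1 with library numbers 18 to 23 as a covariate, 2 without *Slc11a2*KD *APP/PS1* 0004 and 0023 together, a fit added after the values were seen, and 0 to 2 when 1 library was left out (2 without 0023, *Cd79a* and *Igkc*). In Control mice it was 1, and 0 with 0010 kept, and 0 to 1 when 1 library was left out. For *Slc11a2*KD against Control in *APP/PS1* it was 0, and 0 to 1 when 1 library was left out (*Igkc* without 0004, when 16.4% of 18700 genes passed). Shares of all genes called are not reported here for the other fits with libraries left out, 0010 kept or the covariate. The counts of members in those fits are not read against such a share. Over all genes edgeR called 0 in the 2 knockdown comparisons and the interaction, and DESeq2 called 580 in *APP/PS1*, 10 in WT and 25 for the interaction. In the other comparisons no alternative moved the count of members called from 0.

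With 0010 kept, *Igkc* and *Jchain* turned to 2.72 and 1.78 over both conditions, to 2.96 and 2.97 in Control mice, and to −1.17 and −3.24 for *Slc11a2*KD against Control in *APP/PS1*, where *Cd79a* turned to −0.26 and *Nkg7* to −0.0431. With library numbers 18 to 23 as a covariate *Nkg7* turned to −0.215 there. Leaving out 1 library, *Igkc* ran from −3.20 to 0.214 and *Jchain* from −2.10 to 0.357 over both conditions, *Jchain* from −4.64 to 0.0941 in Control mice, *Igkc* from −2.94 to 3.05, *Jchain* from −1.31 to 2.06 and *Ighm* from −0.0228 to 0.15 in *Slc11a2*KD mice, *Igkc* from −1.26 to 0.719 and *Jchain* from −2.32 to 2.11 for the knockdown effect within WT mice, and *Igkc* from −0.172 to 5.84 and *Nkg7* from −0.154 to 0.92 for the same in *APP/PS1*. The reversals came without Control WT 0009 or *Slc11a2*KD *APP/PS1* 0023, and for *Nkg7* without 0020. Of the single-gene log2 fold changes under all alternatives, 538 kept direction and side of the threshold, 16 passed newly, 11 no longer passed and 23 reversed. Without both 0004 and 0023, *Igkc*, *Jchain* and *Ighm* turned to −2.57, −0.921 and −0.0802 in *Slc11a2*KD mice for genotype, and *Cd79a* to −0.591 for *Slc11a2*KD against Control in *APP/PS1*. On CPM in place of log2 CPM, the relation of the choroid plexus sum with *Igkc* within *APP/PS1* turned to −0.0328, and without the 2 farthest libraries 3 relations of *Igkc* turned, to −0.0382 with *Jchain* within WT and to −0.121 with *Ighm* and −0.212 with *Cd79a* within *APP/PS1*. The cause was not tested.

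No fold change of *Cd3g* or *Trbc2* is given. In Control mice DESeq2 called 5 of the B cell and 6 of the NK genes for genotype, against 3 and 2 with edgeR. Over all genes DESeq2 called 2544 there, against 1965 with edgeR. The mean CPM of no member moved by more than 1 SD with the deposited normalized counts. No paired analysis was possible because the groups share no replicate number. At 31128643 to 54872491 counts per library, differences in genes with under 3 counts could not be seen.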
